A study of Bos taurus with 88 samples.

Results

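S100A8, S100A9 and S100A12, the 3 calgranulins, were followed in whole blood of newborn calves. They were chosen by Ensembl identifier, S100A8 as ENSBTAG00000012640, S100A9 as ENSBTAG00000006505 and S100A12 as ENSBTAG00000012638, and are 3 of the 24616 genes counted. The symbols came with this choice, since the count files list identifiers only. S100 proteins bind calcium, and the calgranulins are among the most abundant proteins of the neutrophil cytosol, with lower amounts in monocytes. S100A8 and S100A9 pair as calprotectin, which withholds zinc and manganese from microbes and, once released, acts on receptors such as TLR4. S100A12 is a related protein of the same cells that binds zinc and copper and is a ligand of the receptor RAGE.

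Blood was taken from 22 calves at 0, 48, 72 and 168 h of age, and 1 RNAseq library was made from each of the 88 samples. The dairy calves were 8 Holstein (H) calves, which were parted from the dam and first fed colostrum by hand at 5% of body weight. Per the study's methods, they received more of the dam's colostrum over the following days. Between the 72 h and 168 h samples they moved from single pens to a group pen, with milk replacer and concentrate. In H calves, age and this move cannot be told apart over any interval that spans it. The beef calves were the offspring of Charolais × Limousin (CL, n = 7) or Limousin × Friesian (LF, n = 7) dams, which suckled them, and of Aberdeen Angus or Charolais bulls. The dairy and beef calves thus differed in breed, farm, feeding and management at once, and these cannot be told apart. The 0 h sample preceded colostrum, and the cows of all groups had been vaccinated before calving against bovine herpesvirus 1 and against rotavirus, coronavirus and E. coli.

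Each library held between 10023822 and 39304404 reads on genes (median 22595526.5). Each calgranulin had at least 5440 reads in every library, so counting error was small beside the spread between calves. All values below are TMM-normalised read counts scaled to the library total (CPM), which allow a gene to be compared between libraries. Gene lengths were not used, so levels were not compared between the 3 genes. A gene was called where edgeR gave a Benjamini-Hochberg adjusted p under 0.05 over all genes tested and the change was at least 1.5-fold. The main fits did not pair the libraries of a calf across ages. The median log2 fold change of all genes tested lay between -0.045 and 0.039 in every comparison. In 4 of the 88 libraries only 26.1 to 43.6% of reads lay on genes, the lowest shares of all. They were LF calf 1 at 0 h, with 27.7% unmapped and 32.8% multimapping reads, and H calf 6 at 0, 48 and 72 h, with 41.0, 49.1 and 45.7% multimapping reads. Each comparison that uses them was also fitted without the calf. In whole blood, fewer cells of a type and less RNA per cell cannot be told apart. Markers of neutrophils and of other blood cells could not be looked up by symbol, so the cell source of the reads was not checked here.

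The calgranulins took a large and variable share of the blood transcriptome. Together they made up 0.185 to 1.62% of the reads on genes in a library (median 0.486%). The highest median share, 1.03%, was in H calves at 0 h and the lowest, 0.230%, in CL calves at 168 h. Reads fell about equally on both strands, with 50.01 to 50.5% on the first, so reads from an antisense transcript would not be separated. In the RefSeq annotation of the ARS-UCD2.0 assembly the 3 genes lie side by side in the order S100A8, S100A12 and S100A9. The peptidoglycan recognition genes PGLYRP4 and PGLYRP3 follow after an intervening non-coding gene.

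From birth to day 7, all 3 calgranulins fell in both beef groups. S100A8 in LF calves went from 473 to 2669 CPM (median 834) at 0 h to 205 to 499 CPM (median 301) at 168 h. S100A9 in LF calves went from 931 to 6264 CPM (median 1709) to 459 to 1066 CPM (median 655). S100A12 in LF calves went from 1910 to 8124 CPM (median 3053) to 933 to 1935 CPM (median 1317). In LF calves 6 of 7 calves at 168 h lay below every LF calf at 0 h for each gene, the exception being calf 3. The log2 change was -1.62 ± 0.37 (SE, n = 7 at each age, edgeR adjusted p = 0.00458) for S100A8. It was -1.70 ± 0.38 (edgeR adjusted p = 0.00418) for S100A9 and -1.42 ± 0.29 (edgeR adjusted p = 0.00224) for S100A12. All 3 fell, by 3.08-fold, 3.24-fold and 2.68-fold, where 8.33% of the genes tested were called lower at 168 h.

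In CL calves all 3 calgranulins fell over the week as well. S100A8 ran from 459 to 1270 CPM (median 577) at 0 h and from 204 to 619 CPM (median 212) at 168 h. S100A9 ran from 1051 to 3172 CPM (median 1507) and then from 421 to 1737 CPM (median 566). S100A12 ran from 2003 to 5361 CPM (median 2669) and then from 924 to 2682 CPM (median 1212). The ranges overlapped only through CL calf 2, whose 168 h level was above the lowest 0 h level for each gene. The log2 change was -1.29 ± 0.31 for S100A8, -1.34 ± 0.35 for S100A9 and -1.21 ± 0.29 for S100A12 (SE, n = 7 at each age). The edgeR adjusted p was 0.00627, 0.00949 and 0.00567 in that order, where 8.35% of the genes tested were called lower.

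Every beef calf shared this fall. All 3 genes were lower at 168 h than at 0 h in 7 of 7 CL and in 7 of 7 LF calves. At 168 h, S100A8 was at its lowest of the 4 ages in 7 of 7 CL and 6 of 7 LF calves. Leaving out LF calf 6, which had the highest level at 0 h, brought the log2 change in LF calves to -1.09 for S100A8, -1.14 for S100A9 and -1.05 for S100A12, all still called. Without LF calf 1 the changes were -1.66, -1.75 and -1.46, also all called.

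In H calves the fall over the week was not shared by every calf. S100A8 ran from 713 to 2530 CPM (median 1467) at 0 h and from 381 to 2032 CPM (median 732) at 168 h. S100A9 ran from 1759 to 5493 CPM (median 3695) and then from 1062 to 4381 CPM (median 1490). S100A12 ran from 3353 to 9890 CPM (median 5758) and then from 2013 to 6289 CPM (median 2805). The ages overlapped broadly, and H calf 3, the highest at 168 h, had more of each gene then than at birth. All 3 genes were lower at 168 h in 5 of 8 H calves, higher in 1 and mixed in 2.

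S100A9 and S100A12 fell over the week in H calves, while S100A8 missed the threshold. The log2 change was -0.83 ± 0.31 (SE, n = 8 at each age, edgeR adjusted p = 0.0400) for S100A9 and -0.94 ± 0.27 (edgeR adjusted p = 0.0115) for S100A12. For S100A8 it was -0.77 ± 0.33 with an edgeR adjusted p of 0.0728, and with DESeq2 it was called (adjusted p = 0.0371). Of the genes tested, 12.8% were called lower. Either call could be lost by leaving out 1 calf. The S100A9 call was lost without H calf 1, 2, 5 or 7 (log2 change -0.73, -0.63, -0.77 or -0.68) and the S100A12 call without H calf 2 (-0.72). Without H calf 3 the S100A8 change was -1.10 and was called. Without H calf 6 the changes were -0.88, -0.93 and -1.05 for S100A8, S100A9 and S100A12, and the calls did not change.

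**Figure D1:**
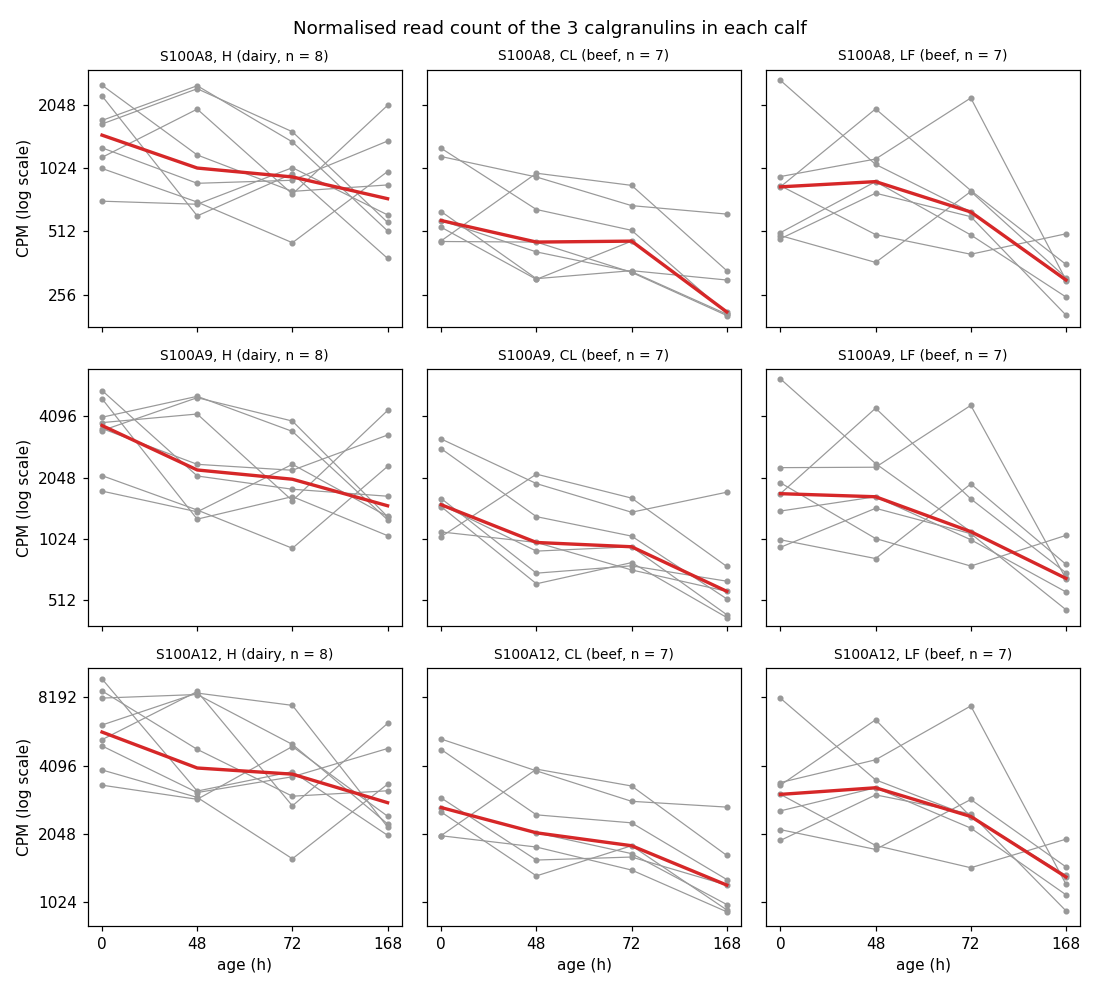
Normalised read count (CPM, log axis) of S100A8, S100A9 and S100A12 in rows against age in hours (ages evenly spaced) for H, CL and LF calves in columns; each grey line is 1 calf and the red line is the group median. The CL and LF group medians are lowest at 168 h, with S100A8 medians of 212 CPM in CL and 301 CPM in LF calves. For S100A8, H calves are spread from 381 to 2032 CPM at that age.

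No change in the calgranulins passed the threshold over the first 48 h. In H calves the log2 fold change over these 48 h was -0.17 ± 0.34 for S100A8, -0.35 ± 0.33 for S100A9 and -0.25 ± 0.30 for S100A12 (SE, n = 8). In CL calves it was -0.35 ± 0.33, -0.59 ± 0.33 and -0.40 ± 0.29 in the same order (n = 7). In LF calves it was -0.01 ± 0.43, -0.13 ± 0.45 and -0.02 ± 0.35 (n = 7). None of these 9 changes was called by edgeR or DESeq2, and 0 had an unadjusted p under 0.05. Over all genes tested, 2.97% in H, 7.86% in CL and 4.52% in LF calves were called lower at 48 h, so other genes did change at this sampling. Without H calf 6 the changes in H calves were -0.13, -0.32 and -0.20, and without LF calf 1 those in LF calves were -0.09, -0.20 and -0.09, for S100A8, S100A9 and S100A12, none called. Single calves moved far in both directions. S100A8 fell by 1.89 on the log2 scale in H calf 2, from 2251 to 607 CPM, and rose by 1.23 in LF calf 2, from 834 to 1954 CPM. The 3 genes moved in the same direction in each of the 22 calves over this interval. All 3 fell in 5 of 8 H, 6 of 7 CL and 3 of 7 LF calves and rose in the others. With 1 CL calf left out, the S100A9 change in CL calves ranged from -0.87 to -0.46 and was never called (lowest edgeR adjusted p = 0.0514).

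The calgranulins did not change detectably between 48 h and 72 h either. From 48 h to 72 h the log2 change of the 3 genes was between -0.49 and -0.36 in H calves, between -0.23 and -0.18 in CL calves and between -0.23 and -0.18 in LF calves. None was called by edgeR or DESeq2, and 0 had an unadjusted p under 0.05. With edgeR 0% of the genes tested were called lower in H, in CL and in LF calves. An unadjusted p under 0.05 was found for 788 genes in H, 2864 in CL and 1064 in LF calves, and DESeq2 called 11, 358 and 120 genes, of which 7, 39 and 19 were lower. In H calves without calf 6 the changes were -0.55, -0.39 and -0.46 for S100A8, S100A9 and S100A12, none called.

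In LF calves the calgranulins fell between 72 h and 168 h. S100A8 in LF calves ran from 399 to 2202 CPM (median 633) at 72 h, S100A9 from 753 to 4642 CPM (median 1111) and S100A12 from 1446 to 7513 CPM (median 2437). The highest value of each gene at 72 h was that of LF calf 4. By 168 h each gene was lower in 6 of 7 LF calves, and only calf 3 rose. The log2 change was -1.43 ± 0.34 for S100A8 (SE, n = 7 at each age, edgeR adjusted p = 0.0103). It was -1.33 ± 0.36 for S100A9 (edgeR adjusted p = 0.0169) and -1.22 ± 0.31 for S100A12 (edgeR adjusted p = 0.0128). Of the genes tested, 10.6% were called lower. Without LF calf 4 the changes were -0.97, -0.84 and -0.80, and all 3 were still called. Over all genes the calls in both directions went from 1780 to 936 without LF calf 4 and to 954 without LF calf 6.

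In CL calves the same interval gave smaller changes that were called only when each calf was compared with itself. S100A8 ran from 327 to 847 CPM (median 460) at 72 h, and was lower at 168 h in 7 of 7 calves. S100A9 ran from 721 to 1625 CPM (median 937) at 72 h and was lower at 168 h in 6 of 7 calves, the exception being calf 2. S100A12 ran from 1413 to 3325 CPM (median 1810) at 72 h and was lower at 168 h in 7 of 7 calves. The log2 change was -0.76 ± 0.30 for S100A8, -0.53 ± 0.32 for S100A9 and -0.64 ± 0.27 for S100A12 (SE, n = 7 at each age). With edgeR the adjusted p was 0.157, 0.302 and 0.170, and 0.0157% of the genes tested were called lower. Without CL calf 1 502 genes were called (413 lower), and 0 of the 3 calgranulins were among them. With the calf as a block the changes were -0.79, -0.65 and -0.68 with edgeR adjusted p of 0.0179, 0.0451 and 0.00962, so all 3 were called, as were 4.46% of the genes tested in the lower direction. DESeq2 without the block called 0 of the 3 and 512 of 12770 genes lower.

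H calves showed no detectable change from 72 h to 168 h. The log2 change was -0.10 ± 0.32 for S100A8, -0.12 ± 0.33 for S100A9 and -0.30 ± 0.30 for S100A12 (SE, n = 8), none was called by edgeR or DESeq2 and 0 had an unadjusted p under 0.05. Of the genes tested in H calves, 5.81% were called lower. Without H calf 1 or 4 the calls in both directions went from 1151 to 668 or 728 genes. The changes of the 3 genes without H calf 6 were -0.22, -0.24 and -0.41, none called. The means hide opposite movements. S100A8 fell in 4 H calves and rose in the other 4, from a fall of 1.43 on the log2 scale in calf 5 to a rise of 1.40 in calf 3. In H calf 3 S100A8 went from 770 to 2032 CPM, in calf 6 from 896 to 1375 CPM and in calf 8 from 453 to 985 CPM.

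Breed differences in change were tested for 0 h to 48 h and 72 h to 168 h only, and no difference was called. The changes from 48 h to 72 h and from 0 h to 168 h were not compared between breeds. The change from 72 h to 168 h was higher in H than in LF calves by 1.35 ± 0.48 on the log2 scale for S100A8 (SE, unadjusted p = 0.00931 by edgeR). The difference was 1.24 ± 0.50 for S100A9 (unadjusted p = 0.0205 by edgeR) and 0.94 ± 0.44 for S100A12 (unadjusted p = 0.0422 by edgeR). After adjustment over 13132 genes all 3 had an edgeR adjusted p of 0.631, and 0% of the genes were called. At an unadjusted p under 0.05 there were 990 genes, and DESeq2 called 0. For H against CL calves the difference over this interval was 0.67 ± 0.45, 0.43 ± 0.47 and 0.36 ± 0.42, and for CL against LF calves 0.67 ± 0.47, 0.80 ± 0.49 and 0.57 ± 0.42, for S100A8, S100A9 and S100A12. None of the 3 was called in these or in the 3 contrasts of the change from 0 h to 48 h by edgeR or DESeq2. In each of these 5 contrasts edgeR called 0% of the genes, and 0 of the 3 had an unadjusted p under 0.05. At that level there were 1832, 780 and 518 genes for CL against LF, H against CL and H against LF calves from 0 h to 48 h, and 204 and 894 for CL against LF and H against CL calves from 72 h to 168 h. DESeq2 called 53, 0, 2, 0 and 44 genes in these 5 contrasts. Without H calf 6 the differences of H from LF calves from 72 h to 168 h were 1.23, 1.11 and 0.82, and without LF calf 1 they were 1.32, 1.23 and 0.90. Neither omission gave a call for the 3 genes in a contrast it enters. The contrasts share calves, so they are not independent.

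CL and LF calves were not distinguishable in any calgranulin at any age. At 48 h, S100A8 ran from 303 to 967 CPM (median 456) in CL and from 365 to 1954 CPM (median 882) in LF calves. The log2 difference of CL from LF was -0.74 ± 0.37 for S100A8, -0.74 ± 0.38 for S100A9 and -0.52 ± 0.32 for S100A12 (SE, n = 7 and 7), with edgeR adjusted p of 0.246, 0.260 and 0.343. At 72 h the differences were of like size, -0.76 ± 0.36, -0.74 ± 0.37 and -0.51 ± 0.32 (edgeR adjusted p = 0.829 for each). At 0 h they were -0.41 ± 0.39, -0.29 ± 0.40 and -0.14 ± 0.32, and at 168 h -0.08 ± 0.26, 0.06 ± 0.30 and 0.06 ± 0.24. At all 4 ages 0 of the 3 had an unadjusted p under 0.05, and edgeR called 0% of the genes tested. The gene count at 48 h depended on the fit, with 966 genes called without LF calf 5 and 542 in the joint fit of all 88 libraries. The 3 genes were not called in either. With 1 calf left out, the difference at 48 h ranged from -0.91 to -0.45 for S100A8, from -0.93 to -0.40 for S100A9 and from -0.68 to -0.28 for S100A12. No such fit was run at 72 h or 168 h. At 72 h LF calf 4 had the highest level of each gene, with 2202 CPM of S100A8 beside 801 CPM in the next LF calf. How far the 72 h differences rested on this calf was not tested. Without LF calf 1 the differences at 0 h were -0.53, -0.42 and -0.25, and without LF calf 6 they were 0.091, 0.23 and 0.21, none called. At an unadjusted p under 0.05 there were 1277, 2908, 563 and 243 genes at 0, 48, 72 and 168 h, and DESeq2 called 9, 558, 2 and 0.

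Dairy calves had more calgranulin RNA than beef calves at birth. At 0 h S100A8 ran from 713 to 2530 CPM (median 1467) in the 8 H calves and from 459 to 2669 CPM (median 606) in the 14 beef calves. S100A9 ran from 1759 to 5493 CPM (median 3695) in H and from 931 to 6264 CPM (median 1562) in beef calves. S100A12 ran from 3353 to 9890 CPM (median 5758) in H and from 1910 to 8124 CPM (median 2806) in beef calves. All 8 H calves lay above the beef median for each gene, but the ranges overlapped, and for S100A8 and S100A9 the highest calf of all was a beef calf, LF calf 6. The log2 difference was 0.88 ± 0.30 for S100A8, 0.86 ± 0.30 for S100A9 and 0.92 ± 0.25 for S100A12 (SE), with edgeR adjusted p of 0.0229, 0.0261 and 0.00688. All 3 were called, where 12% of the genes tested were called higher in dairy calves. The S100A8 and S100A9 calls were lost without H calf 2 (0.76 and 0.77) or H calf 7 (0.72 and 0.73). Without H calf 6 the differences were 0.89, 0.85 and 0.94, and without LF calf 1 0.82, 0.80 and 0.86, all called.

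At 48 h the calgranulins were again higher in dairy calves, but the S100A8 and S100A9 calls lay close to the threshold and were often lost with 1 calf left out. S100A8 ran from 607 to 2517 CPM (median 1024) in H calves and from 303 to 1954 CPM (median 714) in beef calves. S100A9 ran from 1281 to 5143 CPM (median 2235) in H and from 616 to 4495 CPM (median 1383) in beef calves, and S100A12 from 2904 to 8704 CPM (median 3993) and from 1331 to 6525 CPM (median 2758). The groups overlapped for each gene. Above the beef median lay 5 of 8 H calves for S100A8, 7 of 8 for S100A9 and 8 of 8 for S100A12. The log2 difference was 0.88 ± 0.32, 0.86 ± 0.33 and 0.87 ± 0.28 for S100A8, S100A9 and S100A12 (SE), with edgeR adjusted p of 0.0402, 0.0470 and 0.0221. All 3 were called, beside 9.51% of the genes tested. With 1 calf left out at a time, S100A8 was called in 10 of 22 fits, S100A9 in 6 of 22 and S100A12 in 19 of 22. All 3 calls were lost without H calf 1 (0.71, 0.70 and 0.75), H calf 3 (0.79, 0.76 and 0.73) or H calf 5 (0.71, 0.70 and 0.74). Over these fits the differences ranged from 0.71 to 1.02 for S100A8, from 0.70 to 1.03 for S100A9 and from 0.73 to 0.98 for S100A12. Without H calf 6 the S100A9 difference was 0.91 and was not called, and the other 2 were called. Without LF calf 1 the S100A8 and S100A9 differences were 0.86 and 0.83 and were not called.

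At 72 h none of the 3 genes was called with all calves included. The log2 difference of dairy from beef calves was 0.58 ± 0.27 for S100A8, 0.74 ± 0.29 for S100A9 and 0.67 ± 0.27 for S100A12 (SE). The edgeR adjusted p was 0.142, 0.0839 and 0.0939, all 3 had an unadjusted p under 0.05, and DESeq2 called 0 of them. Of the genes tested, 4.53% were called higher in dairy calves. For each gene 7 of 8 H calves lay above the beef median. Without LF calf 4, the highest beef calf at this age, the differences were 0.81, 0.98 and 0.87 and all 3 were called (edgeR adjusted p = 0.0129, 0.00778 and 0.0117). Without H calf 8 S100A12 was called (0.79, edgeR adjusted p = 0.0485). The differences without H calf 6 were 0.59, 0.73 and 0.68, none called.

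Of the 4 ages, 168 h had the largest differences between dairy and beef calves. S100A8 ran from 381 to 2032 CPM (median 732) in H and from 204 to 619 CPM (median 300) in beef calves. S100A9 ran from 1062 to 4381 CPM (median 1490) in H and from 421 to 1737 CPM (median 643) in beef calves. S100A12 ran from 2013 to 6289 CPM (median 2805) in H and from 924 to 2682 CPM (median 1253) in beef calves. Of the 14 beef calves, 12 lay below every H calf for S100A8, 12 for S100A9 and 13 for S100A12. The log2 difference was 1.58 ± 0.27 (SE, edgeR adjusted p = 0.000585) for S100A8. It was 1.56 ± 0.27 (edgeR adjusted p = 0.000719) for S100A9 and 1.30 ± 0.22 (edgeR adjusted p = 0.000581) for S100A12. This was 2.99-fold, 2.95-fold and 2.46-fold, where 6.03% of the genes tested were called higher in dairy calves. All 3 calls held with each of the 22 calves left out, with differences from 1.30 to 1.72 for S100A8, 1.31 to 1.75 for S100A9 and 1.10 to 1.42 for S100A12. Whether the difference at 168 h exceeded that at 0 h was not tested.

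The share of multimapping reads also differed between dairy and beef calves. Its median was 11.8% in H and 8.90% in beef calves at 0 h, 16.8 and 9.38% at 48 h, 17.4 and 10.2% at 72 h and 9.62 and 8.65% at 168 h. Such reads were not counted on genes, and their part in the differences was not tested.

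**Figure D2:**
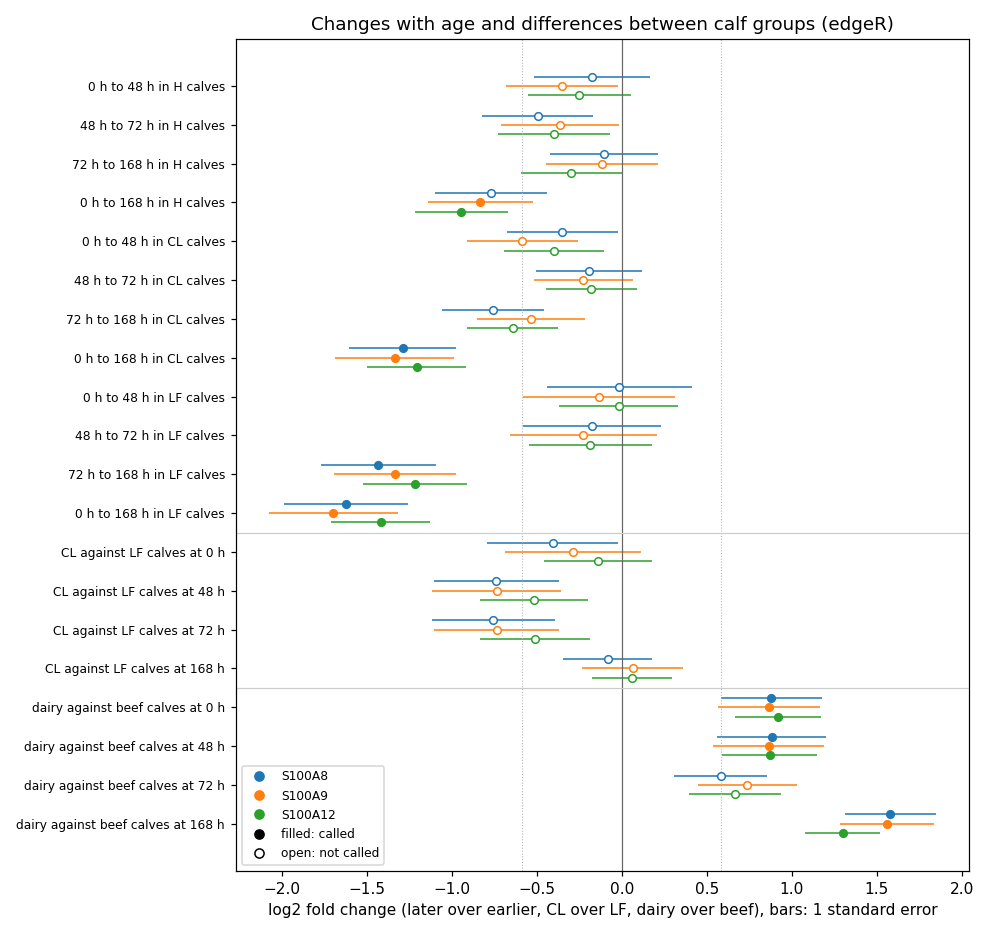
Log2 fold change (horizontal axis) of S100A8, S100A9 and S100A12 in each comparison (vertical axis), for later over earlier age, CL over LF and dairy over beef calves; bars are 1 standard error, filled points were called by edgeR, and dotted lines mark a fold change of 1.5. Falls were called from 0 h to 168 h in CL and LF calves for all 3 genes, and the S100A8 difference of dairy from beef calves at 168 h was 1.58.

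The 3 calgranulins rose and fell together from calf to calf. With the mean of each breed removed, Pearson's r between any pair over the 22 calves was 0.953 to 0.986 within each age (12 relations). Spearman's rho was 0.895 to 0.974. Each permutation p was 1e-05 for r and for rho, the smallest that 100000 resamples can give, and 1e-05 after adjustment over the 12. Without the 2 calves farthest from the median, r was 0.917 to 0.982. Within single breeds r was 0.922 to 0.988 in H, 0.911 to 0.998 in CL and 0.953 to 0.993 in LF calves. A calf high in S100A8 for its breed and age was thus high in S100A9 and S100A12 as well, as with LF calf 6 at 0 h (2669, 6264 and 8124 CPM) and LF calf 4 at 72 h (2202, 4642 and 7513 CPM).

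**Figure D3:**
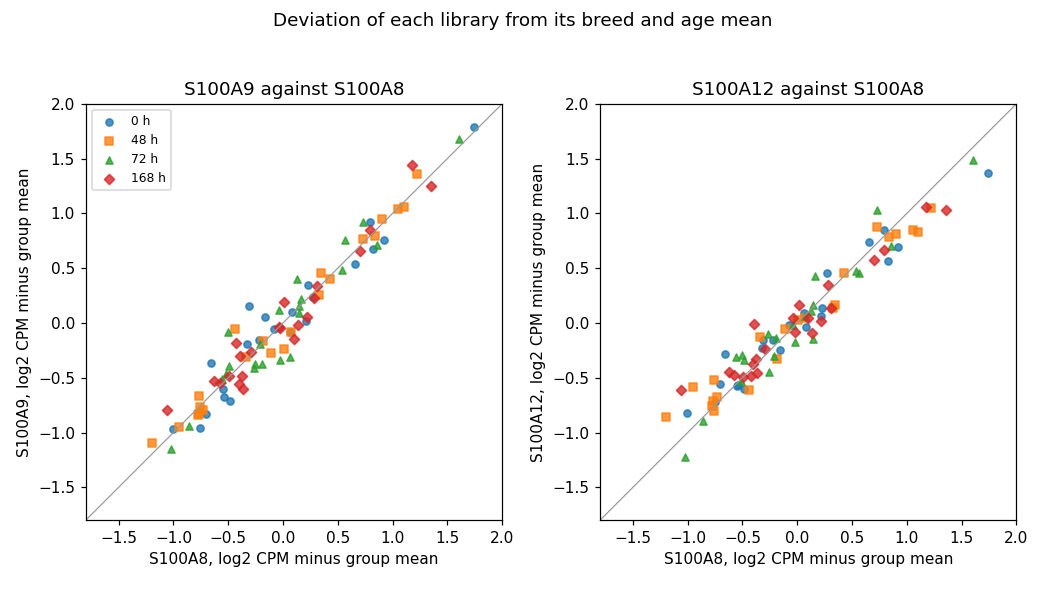
Log2 CPM minus the mean of the breed and age group for S100A9 (left) and S100A12 (right) against S100A8, with 1 point per library (88 in all), marked by age; the grey line is equality. The points lie along the line at every age, with r between pairs of genes of at least 0.953.

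Since the members share so much of their variation, their ratio within a library was compared between ages. A ratio does not depend on how the libraries were scaled. The log2 ratio of S100A8 to S100A9 reads, the partners of calprotectin, had a mean of -1.27 in H calves at 0 h and -1.07 at 48 h, and rose by 0.20 ± 0.21 (SD, n = 8), in 8 of 8 calves (exact permutation p = 0.00781, 2-sided, the smallest that 8 calves allow). In CL calves it moved from -1.32 to -1.09, by 0.23 ± 0.14 (SD, n = 7), upwards in 7 of 7 calves (exact permutation p = 0.0156, the smallest that 7 calves allow). In LF calves it moved from -1.18 to -1.06, by 0.12 ± 0.25 (SD, n = 7), upwards in 5 of 7 calves (exact permutation p = 0.281). None of these passed adjustment over the 36 ratio tests, since the smallest adjusted p was 0.281. With so few calves a single ratio could not pass on its own, even at its smallest possible p. Not passing therefore does not show that a ratio was unchanged.

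Later ages gave no ratio change that passed adjustment either, with the same limit on what these tests could detect. In LF calves from 72 h to 168 h the ratio of S100A12 to S100A8 rose by 0.19 ± 0.12 (SD, n = 7) in 6 of 7 calves (exact permutation p = 0.0312, adjusted p = 0.338). The ratio of S100A8 to S100A9 fell by 0.14 ± 0.14 (SD, n = 7) in 6 of 7 of these calves (exact permutation p = 0.0469, adjusted p = 0.338). Over all 88 libraries the log2 ratio of S100A8 to S100A9 reads stayed between -1.73 and -0.77.

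**Figure D4:**
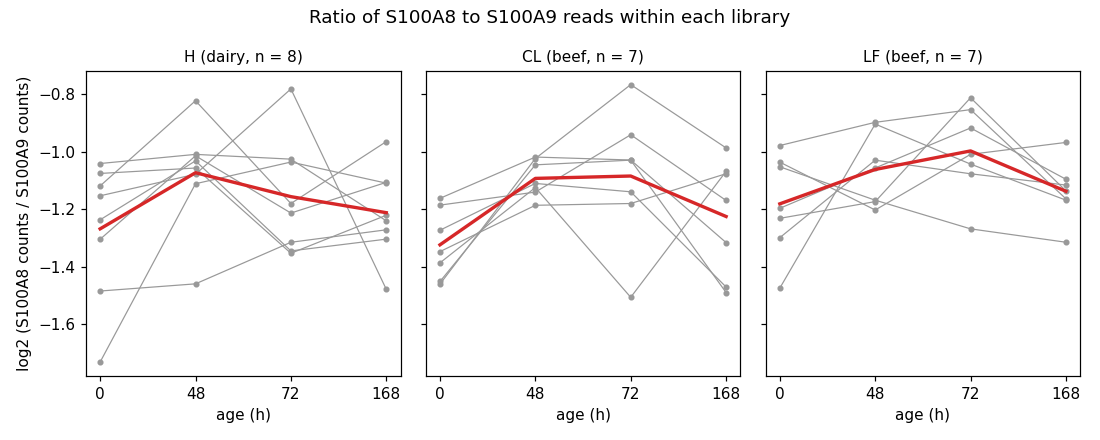
Log2 ratio of S100A8 to S100A9 reads (vertical axis) against age in hours (ages evenly spaced) for H, CL and LF calves; each grey line is 1 calf and the red line is the group mean. The ratio is higher at 48 h than at 0 h in 8 of 8 H, 7 of 7 CL and 5 of 7 LF calves.

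No other gene followed the calgranulins as closely as they followed each other. Likeness was measured as Pearson's r of log2 CPM over the 88 libraries, which share animals and ages, and is a description. The r of each member with the mean of the other 2 was 0.987 for S100A8, 0.985 for S100A9 and 0.984 for S100A12, and each ranked 1 among all genes. Of 13798 other genes, 94 had an r over 0.8 with the mean of the 3, and 0 had an r under -0.8. The most alike were ENSBTAG00000013201 (r = 0.93) and ENSBTAG00000013362 (r = 0.92), with r of 0.86 and 0.84 once the group means were removed. ENSBTAG00000013201 had a median of 271 CPM in H calves at 0 h and 136 CPM at 168 h, and of 143 and 46.95 CPM in CL calves. The most opposed were ENSBTAG00000021677 (r = -0.77) and ENSBTAG00000025450 (r = -0.77). ENSBTAG00000025450 had a median of 224 CPM in LF calves at 0 h and 328 CPM at 168 h.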

How the data were processed

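Whole-blood RNA of 22 calves at 4 ages was sequenced as 88 single-end libraries. Per the submitters' processing notes and the methods of the study, the authors trimmed reads with cutadapt, checked them with FastQC, aligned them with STAR to UMD3.1 and used DESeq2. The authors deposited STAR read counts per Ensembl gene, unstranded and for each strand, without normalization. The unstranded counts were used, because the strands held equal shares. Multimapping reads are not in the counts, so near-identical copies may be undercounted. Rows of unmapped, multimapping, ambiguous and unassigned reads were kept out of library sizes. Reads on genes were 26.1 to 69.4% of each library. Breed, age and calf came from the labels. In the CL group at 48 h, 2 labels carry the same replicate number, and the calf tag told them apart.

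Each comparison was fitted with edgeR 4.0.16 (quasi-likelihood, robust, TMM, default filter on low counts) in R 4.3.3 on the groups compared only. These main fits had no term for the calf, so libraries of the same calf at different ages were treated as independent. Standard errors come from the log2 fold change and the F statistic. A prior count of 2 entered log2 CPM. Correlations and exact permutation tests used Python 3.11.15, numpy 2.4.6 and scipy 1.17.1. Scripts were tested on simulated data. Alternatives were the calf as a block, DESeq2 1.42.0, RLE scaling, no filter, at least 10 counts in every library, a joint fit of all 88 libraries, also with the L number as a term, omission of the 9 libraries marked R, TMM without the 3 genes, and omission of each calf. The meaning of the L number and of R is not given in the sources used here. Omission of each calf was not run for 48 h to 72 h in CL or LF calves, nor for CL against LF calves at 72 h and 168 h. Omission of each calf for 0 h to 168 h, for 48 h to 72 h in H calves, for CL against LF calves at 0 h and for dairy against beef calves was added after seeing the data, as was omission of H calf 6 or LF calf 1 in the contrasts of change between breeds.

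The calf numbers pair the libraries, since the same animal was sampled at each age. The mean correlation of deviations within a calf was 0.21 to 0.54 per breed and interval. It was lowest, at 0.21, in CL calves between 72 h and 168 h and between 0 h and 168 h. There the lowest single calf had -0.13 and -0.16. Among 280 pairs of libraries within groups, 0 were identical, and chi-square divided by its degrees of freedom was at least 33.95.

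The named genes were the 3 members and, by r with their mean, the most alike and most opposed genes, of which 2 each are printed. The members and lists were chosen with earlier results of these data known. Lists of neutrophil, other blood cell, S100 and receptor genes, and the level of the members relative to neutrophil genes, were not used, because 0 identifiers matched a symbol in the reference table. Promoter and protein sequences were not used here.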

Additional observations from a re-analysis of the deposited data

Results flagged for a closer look

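In 36 sets of values (3 genes in 12 groups of 7 or 8 calves), 5 had 1 calf whose gap to the next calf was large beside the range of its group on the log2 scale. Chance marks about 1 in 20 such groups, and the 3 genes of a library are not independent. S100A8 in LF calf 6 at 0 h was 2669 CPM beside 933 CPM in the next calf (gap 0.607 of the range), and S100A12 in the same library was 8124 beside 3444 CPM (0.593). S100A8 in LF calf 4 at 72 h was 2202 CPM beside 801 CPM in the next calf (0.592), and S100A12 in that library was 7513 beside 2898 CPM (0.578). S100A9 in CL calf 2 at 168 h was 1737 CPM beside 750 CPM in the next calf (0.593). No library among these was one of the 4 with few reads on genes.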

How the results depend on the processing

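The calls for 0 h to 168 h in CL and LF calves, 72 h to 168 h in LF calves and dairy against beef calves at 168 h held under every alternative run. The cause of the changes below was not tested. Beside the calls gained with the calf as a block in CL calves from 72 h to 168 h (-0.79, -0.65 and -0.68 for S100A8, S100A9 and S100A12), the block changed no other call; over all genes it raised the calls from 0 h to 48 h in H calves from 868 to 1397 and from 48 h to 72 h from 1 to 625 in CL calves, and in LF calves from 0 to 138 higher and 19 lower. From 0 h to 168 h in H calves, S100A8 was called with DESeq2 (-0.77), and S100A9 was not called without a filter (-0.79), without the R libraries (-0.80), in 1 fit of all 88 (-0.81) or with the L number (-0.89). For dairy against beef calves S100A8 (0.87) and S100A9 (0.85) at 48 h were not called without a filter, nor was S100A9 at 0 h with the L number (0.81).

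Changes of sign concerned values that were never called. Without the R libraries they were S100A8 from 0 h to 48 h in H calves (0.085), S100A8 in CL against LF calves at 168 h (0.021), and S100A8 (0.092) and S100A9 (0.010) in the contrast of the change from 0 h to 48 h between H and LF calves. From 0 h to 48 h in LF calves the sign changed with the block (S100A8 0.076, S100A12 0.012) and for S100A8 with the L number (0.068). With the L number, CL against LF calves changed for S100A12 at 0 h (0.031) and 168 h (-0.010) and for S100A9 at 168 h (-0.056). Of the ratios, without the R libraries S100A8 to S100A9 from 0 h to 168 h became -0.021 in CL and -7.91e-06 in LF calves, and S100A12 to S100A8 from 48 h to 72 h became 0.020 in H and -0.031 in CL calves.

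With 1 calf left out, the change from 0 h to 48 h ranged from -0.32 to 0.031 for S100A8 in H calves, and in LF calves from -0.34 to 0.47 for S100A8, -0.53 to 0.35 for S100A9 and -0.27 to 0.34 for S100A12. From 72 h to 168 h in H calves it ranged from -0.43 to 0.091 for S100A8 and -0.43 to 0.11 for S100A9. From 0 h to 168 h in H calves it ranged from -1.10 to -0.53 for S100A8, -1.07 to -0.63 for S100A9 and -1.17 to -0.72 for S100A12. Dairy against beef calves ranged at 0 h from 0.72 to 1.13 for S100A8 and 0.73 to 1.13 for S100A9, and at 48 h from 0.71 to 1.02 for S100A8, 0.70 to 1.03 for S100A9 and 0.73 to 0.98 for S100A12. At 72 h they ranged from 0.46 to 0.81 for S100A8, 0.57 to 0.98 for S100A9 and 0.47 to 0.87 for S100A12. CL against LF calves at 0 h ranged from -0.60 to 0.091 for S100A8, -0.47 to 0.23 for S100A9 and -0.31 to 0.21 for S100A12. Each library held at least 5440 reads of each gene.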

Other observations

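How far a calf kept its place among the calves of its breed from age to age was looked at after the data had been seen, in 9 relations over 22 calves with breed means removed. Between 48 h and 72 h Pearson's r was 0.53 for S100A8, 0.53 for S100A9 and 0.48 for S100A12 (permutation p = 0.0105, 0.0107 and 0.0214, adjusted p = 0.0484, 0.0484 and 0.0642). Spearman's rho over that interval was 0.45, 0.46 and 0.36 (permutation p = 0.0391, 0.0339 and 0.103, adjusted p = 0.132, 0.132 and 0.155), so the relation passed for S100A8 and S100A9 by r only. Without the 2 calves farthest from the median, r was 0.51, 0.51 and 0.64. Within breeds it was 0.39 to 0.64 in H, 0.84 to 0.92 in CL and 0.27 to 0.38 in LF calves. Between 0 h and 48 h r was 0.33, 0.34 and 0.34, with rho of 0.37, 0.39 and 0.44 (adjusted p = 0.208 for each r by permutation, and 0.155, 0.155 and 0.132 for rho). Between 72 h and 168 h r was -0.09, -0.06 and -0.13, with rho of -0.14, -0.04 and -0.11 (adjusted p = 0.782, 0.782 and 0.709 for r and 0.690, 0.855 and 0.718 for rho, by permutation). Over that last interval r within breeds was -0.55 to -0.42 in H, 0.61 to 0.81 in CL and -0.35 to -0.12 in LF calves, and the difference between breeds was not tested.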
